A study of Rattus norvegicus with 45 samples.

Results

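In the brains of 15 male Sprague-Dawley rats, 108 of 18609 tested probe sets had a level that was particular to each animal and recurred in all 3 regions sampled. The members were chosen from the measured values. The log2 intensity of each array was taken relative to the mean of its region and treatment group, and a probe set was a member when the mean of the 3 Pearson correlations between regions over the 15 rats was over 0.9 and the mean standard deviation (SD) within the 9 groups was over 0.3 log2 units. The correlations and SDs are therefore a description and carry no test. The members include Car3, Ramac, Rnase4 and Pxmp4, with 57 probe sets that carry a single gene (55 genes), 48 that carry no gene and 3 that carry several.

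All rats were about 2 months old and received 1% acetic acid in water as vehicle, haloperidol at 0.25 mg/kg/d or risperidone at 5 mg/kg/d for 21 days through subcutaneous minipumps, 5 rats per treatment. Both drugs are antipsychotics that act on dopamine D2 receptors, and risperidone acts on serotonin receptors as well. Each rat gave a sample of frontal cortex, of hippocampus and of striatum, so that 45 Affymetrix Rat Genome 230 2.0 arrays entered the comparison, and the samples carry animal numbers that link the regions. The tissue field of the labels speaks of mouse brain, whereas organism, strain and array are those of the rat. Sprague-Dawley rats are an outbred stock, and genotypes were not analysed here.

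A probe set reads a transcript through a group of short oligonucleotides, most of them near its 3′ end, so that it reports the sequence its probes match rather than the gene as a whole. The level of many transcripts differs more between brain regions than between animals, because regions differ in their cell types. A transcript whose level follows the animal shows the same order of animals in tissues that were dissected and hybridized separately. In bulk tissue, fewer cells of a type and less RNA per cell cannot be told apart.

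Some libraries stood apart in markers of neighboring tissue. In striatum, pyramidal neuron markers averaged log2 8.22 in risperidone replicate 3 and 7.59 and 7.23 in haloperidol replicates 5 and 3. They averaged 7.02 in risperidone replicate 5 and between 5.54 and 6.49 in the other rats. In frontal cortex, olfactory bulb markers averaged 9.25 and 8.91 in risperidone replicates 2 and 5 and between 7.94 and 8.46 in the other rats. In hippocampus, meningeal markers averaged 7.50, 7.48 and 7.33 in risperidone replicates 2 and 3 and haloperidol replicate 1 and between 5.84 and 6.95 in the other rats. Region markers followed the labels. Adora2a, a receptor of striatal projection neurons, was higher in striatum than in frontal cortex by 5.52 on the log2 scale (standard error (SE) 0.10), and Prox1, a factor of dentate granule cells, was higher in hippocampus than in frontal cortex by 3.02 (SE 0.06). Drug calls of members are given with and without risperidone replicate 3 in striatum and risperidone replicates 2 and 5 in frontal cortex. Regional differences of named members are given with and without risperidone replicates 2, 3 and 5 and haloperidol replicate 1. Haloperidol replicates 3 and 5 were not left out there.

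The promoters of 4 member genes are shown first, namely those of Rnase4, Ramac and Pxmp4, whose levels by rat are described below, and of Dnajb6, whose rat profile was shared with a gene nearby. The sequences are the 250 bases before the annotated start of each gene in the RefSeq annotation of GRCr8, 5′ to 3′ on the strand of the gene, and they are those of the reference rat, not of the rats measured. Capitals mark the TATA box motif (TATAAA), the CCAAT box and the GC box (GGGCGG) on either strand, and these may overlap. The windows are chr15:26786037-26786286, plus strand for Rnase4, chr1:145117502-145117751, plus strand for Ramac, chr3:163570830-163571079, minus strand for Pxmp4 and chr4:6232005-6232254, minus strand for Dnajb6.
Rnase4: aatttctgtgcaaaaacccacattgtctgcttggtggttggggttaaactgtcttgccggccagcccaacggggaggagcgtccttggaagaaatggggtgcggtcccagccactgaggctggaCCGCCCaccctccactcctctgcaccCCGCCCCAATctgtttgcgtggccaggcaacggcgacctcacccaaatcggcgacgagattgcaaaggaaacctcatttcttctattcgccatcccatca
Ramac: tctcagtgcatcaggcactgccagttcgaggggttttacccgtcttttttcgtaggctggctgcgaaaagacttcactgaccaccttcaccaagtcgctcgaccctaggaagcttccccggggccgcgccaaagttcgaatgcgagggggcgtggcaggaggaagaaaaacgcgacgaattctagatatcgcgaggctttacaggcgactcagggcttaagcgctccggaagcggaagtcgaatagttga
Pxmp4: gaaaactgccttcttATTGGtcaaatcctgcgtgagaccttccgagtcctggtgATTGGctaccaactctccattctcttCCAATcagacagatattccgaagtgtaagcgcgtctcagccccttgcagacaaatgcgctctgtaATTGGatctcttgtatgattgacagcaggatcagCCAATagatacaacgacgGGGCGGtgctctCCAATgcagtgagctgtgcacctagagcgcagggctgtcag
Dnajb6: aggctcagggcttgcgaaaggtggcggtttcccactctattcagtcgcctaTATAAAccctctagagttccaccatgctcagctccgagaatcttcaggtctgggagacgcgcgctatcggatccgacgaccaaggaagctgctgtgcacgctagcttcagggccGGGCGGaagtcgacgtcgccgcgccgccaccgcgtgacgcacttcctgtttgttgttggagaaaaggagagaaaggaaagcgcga

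Of the 55 member genes, 45 had a promoter in the RefSeq table, Car3 not among them. TATAAA was present in 3 of these (6.7%, against 6.0% of the promoters of 8567 tested genes and 13.1% of all promoters in the table). CCAAT was present in 33.3% against 35.4% of tested and 34.3% of all, GGGCGG in 60.0% against 60.5% and 32.4%, and the E-box CACGTG in 6.7% against 8.6% and 5.8%. The median number of CG pairs was 17 in the member promoters and 17 in the tested ones. The shares in member promoters were thus close to those in the promoters of tested genes, and a motif match is a description and not a site.

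The members had a median correlation between regions of 0.94 (range 0.90 to 0.99), against 0.24 over all tested probe sets (range -0.45 to 0.99). Their median SD within groups was 0.49 log2 units (0.30 to 1.62), against 0.12. A correlation over 0.9 was found in 134 probe sets and an SD over 0.3 in 654, and 16.51% of those 654 were members. Differences between rats made up between 82.6% and 99.0% of the variance of a member around its group means (median 92.3%). The members were slightly dimmer than the other probe sets, with a median level of log2 7.38 against 7.92.

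**Figure D1:**
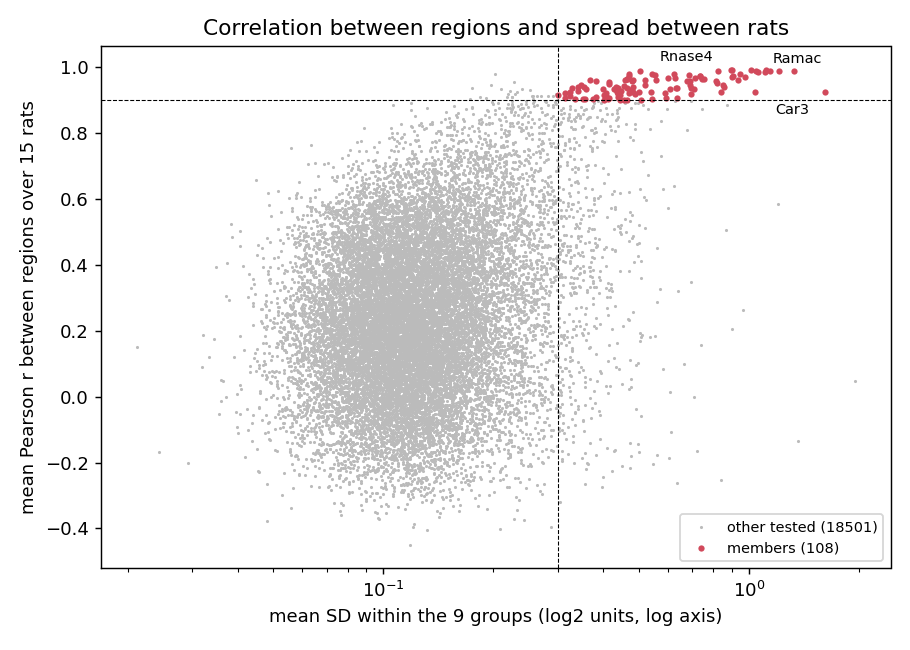
Each point is a tested probe set, with the mean SD within the 9 groups of region and treatment on the x axis (log2 units, log axis) and the mean Pearson correlation between regions over 15 rats on the y axis. Dashed lines are the thresholds of 0.9 and 0.3, and the 108 members (red) fill the upper right corner, with Car3 at the widest spread.

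Members just inside the threshold on correlation were Prune2 (0.9015), Cdh22 (0.9016) and Hspa9 (0.9016), with the unnamed probe sets 1390985_at and 1385521_at at 0.9002. Just outside lay Slc13a3 (0.8984), Prim1 (0.8984), Plac9 (0.8962) and Abhd6 (0.8923), with 1370428_x_at at 0.8988. For the SD, Uqcc6 (0.3141), Slc26a8 (0.3151) and Zfp61 (0.3246) lay just inside, with the unnamed 1382024_at (0.3004) and 1376463_at (0.3243). Chi3l1 (0.2979), Trak2 (0.2978), the probe set 1383227_at of Arl16 (0.2913), Rab14 (0.2829) and the unnamed 1389845_at (0.2708) lay just outside. The members are thus the upper end of a continuous range and not a separate cloud.

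Car3, a carbonic anhydrase that is abundant in muscle, liver and fat, had the widest spread of the members (SD 1.62). Its mean over the 3 regions was log2 5.11, 9.40, 9.33, 5.02 and 5.27 in vehicle replicates 1 to 5. In the haloperidol rats it was 5.38, 5.67, 9.5, 5.26 and 5.79, and in the risperidone rats it was 5.26, 6.58, 5.87, 5.62 and 6.14. Vehicle replicates 2 and 3 and haloperidol replicate 3 were high in each region, with their lowest value at 8.74 and their highest at 9.97. The remaining 12 rats had means from 5.02 to 6.58, but risperidone replicate 2 reached 8.15 in frontal cortex alone, against 6.49 in hippocampus and 5.09 in striatum. That library was among the 2 with the highest olfactory bulb markers, and the part of those markers in the value was not tested. Levels under log2 5 were common on the arrays (27.2% of all probe sets), and the deposited values carry no detection call.

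Ramac, the activating subunit of the mRNA cap methyltransferase, was low in 4 rats. Its rat means were log2 8.08, 7.86, 7.99, 7.93 and 7.92 in the vehicle group. They were 4.99, 4.74, 8.61, 5.03 and 7.86 in the haloperidol group and 7.95, 8.18, 7.89, 4.91 and 7.96 in the risperidone group. Haloperidol replicates 1, 2 and 4 and risperidone replicate 4 lay at 5.03 or below, and the other 11 rats at 7.86 or above, so that the gap took up 73.1% of the range. In frontal cortex the 4 low rats stood at 5.08, 4.90, 5.45 and 5.15, and the other 11 between 7.70 and 8.39.

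Rnase4, a secreted ribonuclease, was measured by a pair of member probe sets whose rat profiles correlated at 0.998. By probe set 1371475_at the vehicle rats had means of log2 9.03, 9.88, 8.87, 8.83 and 10.06. The haloperidol rats had means of 9.84, 9.98, 9.89, 8.79 and 8.87, and the risperidone rats of 9.04, 6.44, 10.18, 10.04 and 9.08. The values fell into 3 runs: risperidone replicate 2 alone at 6.44, 7 rats from 8.79 to 9.08 and 7 rats from 9.84 to 10.18. The runs of 7 rats each held rats of all 3 treatments. Parted likewise at gaps over 20% of the range, probe set 1368943_at gave only 2 runs. They were risperidone replicate 2 at 6.16 and the other 14 rats from 8.29 to 9.66.

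Pxmp4, a peroxisomal membrane protein, was also measured by a pair of member probe sets (correlation 0.988). By probe set 1383117_at its rat means were 7.37, 5.64, 8.27, 5.72 and 7.38 in the vehicle group. They were 7.39, 5.59, 5.58, 7.28 and 7.37 after haloperidol and 7.43, 7.56, 5.73, 5.71 and 5.38 after risperidone. Low values from 5.38 to 5.73 were found in 7 rats, values from 7.28 to 7.56 in 7 rats, and 8.27 in vehicle replicate 3. Probe set 1393421_at gave the same runs of 7, 7 and 1 rats, at 5.64 to 5.99, 6.81 to 7.24 and 7.68.

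Sgcb, the beta subunit of the sarcoglycan complex of the cell membrane, was at log2 6.75 in vehicle replicate 3. The other vehicle rats stood at 9.57, 8.83, 9.43 and 8.76. The haloperidol rats stood at 9.46, 9.64, 9.53, 9.56 and 8.76 and the risperidone rats at 9.53, 9.47, 8.88, 8.75 and 9.48, so that the lowest rat lay 69.1% of the whole range from the next.

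Pik3r1, the p85 alpha regulatory subunit of phosphoinositide 3-kinase, had vehicle means of log2 8.19, 6.56, 8.80, 8.26 and 6.71. The means were 8.02, 8.83, 8.05, 8.10 and 8.26 after haloperidol and 6.71, 8.15, 6.57, 7.99 and 6.41 after risperidone. The values fell into runs of 5 rats (6.41 to 6.72), 8 rats (7.99 to 8.26) and 2 rats (8.80 to 8.83). None of the 5 low rats had received haloperidol, but the rat means of haloperidol and vehicle differed by 0.55 with an SE of 0.44 (adjusted p = 0.598 from limma).

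**Figure D2:**
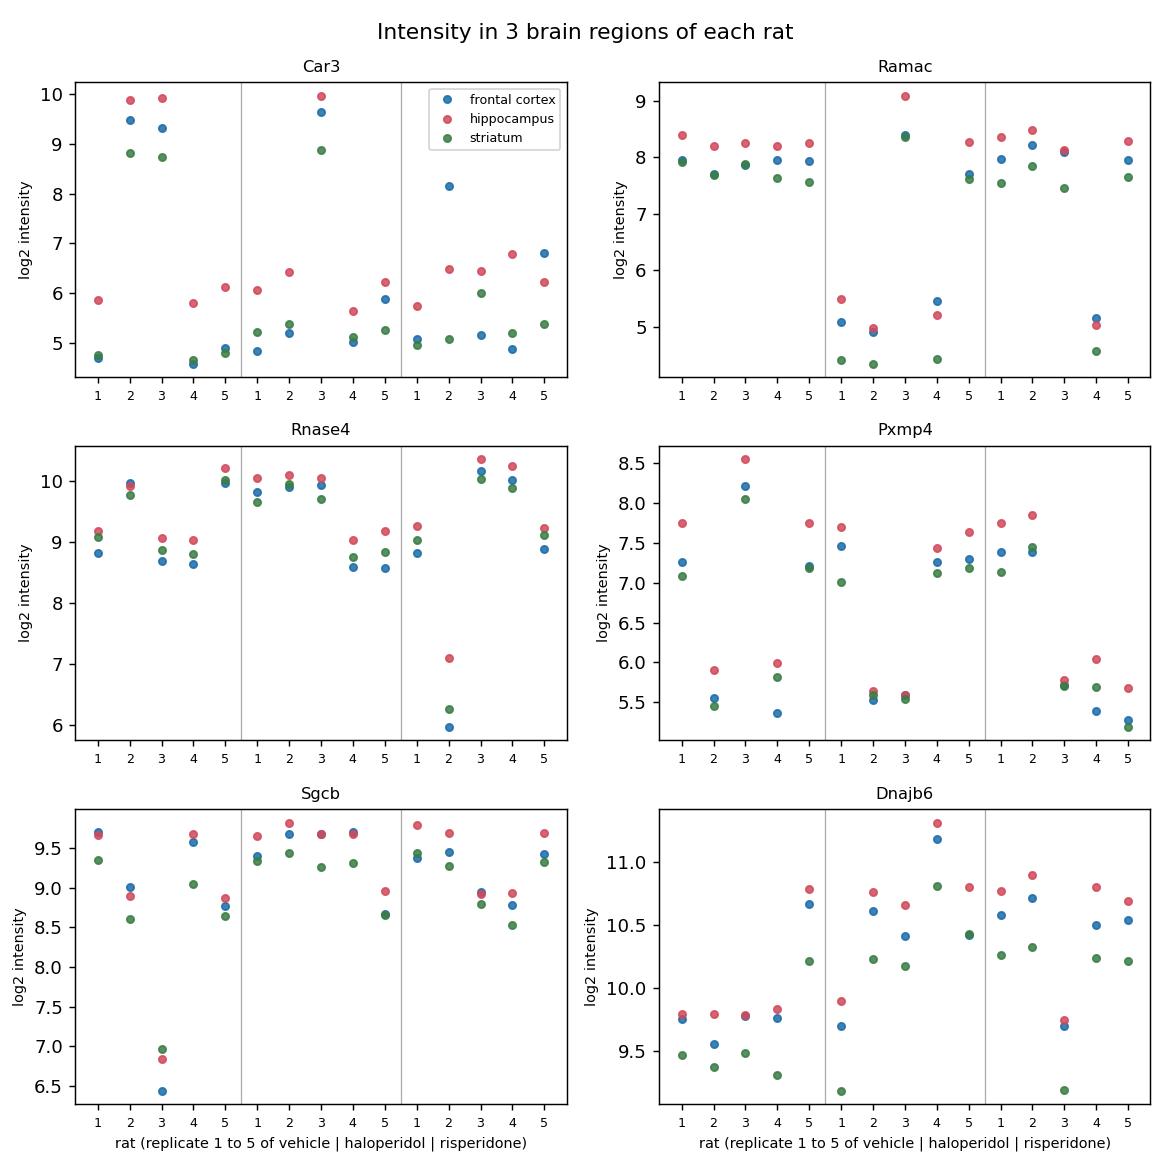
The log2 intensity (y axis) of Car3, Ramac, Rnase4 (1371475_at), Pxmp4 (1383117_at), Sgcb and Dnajb6 is shown for each of the 15 rats (x axis, replicates 1 to 5 of vehicle, haloperidol and risperidone), with a point per region. For each gene the 3 points of a rat lie close together relative to the distance between high and low rats, apart from Car3 in risperidone replicate 2 (8.15 in frontal cortex, 5.09 in striatum).

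Such steps were frequent among the members. The largest gap between neighboring rat means took up more than 50% of the range over rats in 27 members (25%, against 2.3% of tested probe sets) and more than 33% in 65 (60.2% against 22.0%). The gap set apart a single rat in 24 members, 2 rats in 22, 3 rats in 18, 4 in 14, 5 in 6, 6 in 12 and 7 in 12. When rats were parted wherever a gap exceeded 20% of the range, 43 members fell into 3 runs (39.8%, against 16.5% of tested probe sets), 57 into 2 (52.8% against 61.4%) and 8 stayed in 1 (7.4% against 21.7%). The selection on a wide spread can itself favor such gaps, so these shares describe the members and are not compared by a test.

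Other members with a single gene and a wide spread or a high correlation showed similar patterns. Brcc3-ps7, a pseudogene of a deubiquitinase subunit, was low in 10 rats (4.91 to 5.90) and high in 5 (7.71 to 8.87). Creg2, a secreted glycoprotein, had runs of 8, 6 and 1 rats at 5.94 to 6.62, 7.46 to 7.92 and 8.42. Tmem44, a transmembrane protein, had 6 rats from 4.91 to 5.58 and 9 from 6.47 to 7.28. Vof16 had 5 rats from 5.95 to 6.49 and 10 from 7.47 to 8.22. Ythdf2, a reader of methylated adenosine in RNA, stood at 7.11 in a single rat and from 8.72 to 9.71 in the other 14. Lrrc8a, a subunit of the volume-regulated anion channel, had 4 rats from 5.43 to 5.58 and 11 from 6.51 to 7.34, and Eeig2 had 5 from 6.29 to 6.67 and 10 from 7.33 to 8.29. Rexo4, an exonuclease domain protein, fell into runs of 3, 4 and 8 rats, the lowest from 7.10 to 7.32. Abca1, which exports cholesterol from cells, was low in 3 rats (6.72 to 7.11) and higher in 12 (8.25 to 9.16).

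The unnamed probe sets with the widest spread behaved alike. In 1379859_at, 1371776_at and 1391512_at the largest gap set apart 2 low rats, and the ranges over rat means were 4.07, 3.75 and 3.53 log2 units. In 1386855_at and 1383449_at the gap parted 7 rats from 8, with ranges of 3.67 and 3.53. Over all members the range ran from 0.93 to 4.48 log2 units (median 1.71), and 106 of 108 spanned at least 1 log2 unit.

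The rat farthest from the others varied between members. Each rat was farthest from the median in 2 to 15 members, with the highest numbers in risperidone replicates 5 (15) and 2 (13) and the lowest in haloperidol replicate 1 and risperidone replicate 1 (2 each). When the 2 rats farthest from the median were left out of each probe set, the mean correlation between regions was still over 0.8 in 99 members and over 0.5 in 107. The exception was Rnf6, a ubiquitin ligase, whose correlation fell to 0.12 without vehicle replicates 1 (8.85) and 4 (8.32), when the other 13 rats lay between 7.11 and 7.34.

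**Figure D3:**
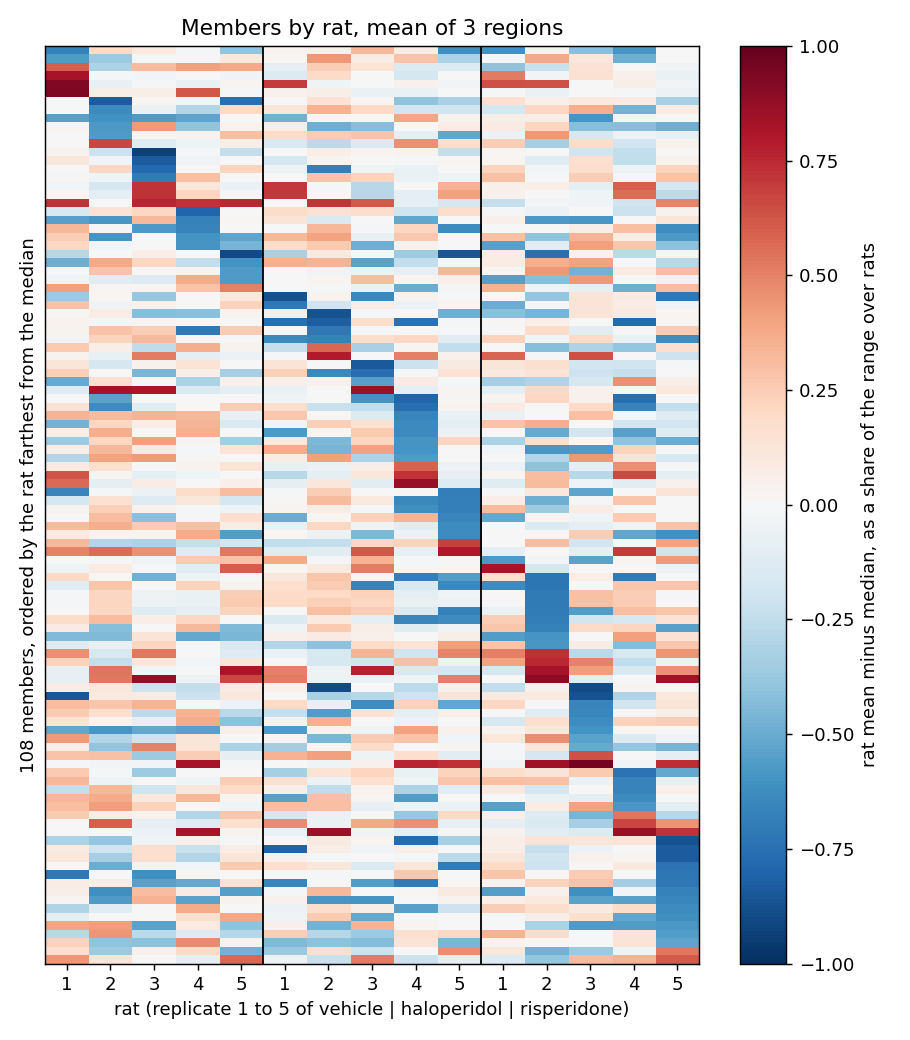
Each row is a member and each column a rat, and color gives the rat mean over 3 regions minus the median of the 15 rats, as a share of the range over rats (color bar). Rows are ordered by the rat farthest from the median, and every rat is the farthest in 2 to 15 rows.

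Because the rule used all 3 regions, each region was also left out of the choice. With hippocampus and striatum alone, 113 probe sets passed, and their residuals in frontal cortex correlated with the mean of the other regions at a median of 0.953 (lowest 0.496). With hippocampus left out, 96 passed and the median was 0.965 (lowest 0.683), and with striatum left out, 132 passed and the median was 0.941 (lowest 0.545). Over the probe sets so chosen, 15 of 15 arrays of the left-out region were most like the other regions of their own rat, in each region. The correlation with the own rat was at least 0.893, and with any other rat at most 0.307, so that each array was closest to the arrays with its own animal number.

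The members shared little with each other. Over 5778 pairs of members the median absolute correlation of rat profiles was 0.21, 6 pairs exceeded 0.9 and 4 lay under -0.9. Beside the probe set pairs of Rnase4 and Pxmp4, the highest was 0.993 between Dnajb6, a co-chaperone of the HSP40 family, and Nom1, a nucleolar protein, whose genes lie 4 places apart in the order of genes on rat chromosome 4. Dnajb6 means were 9.67, 9.57, 9.68, 9.63 and 10.55 in the vehicle rats. They were 9.59, 10.53, 10.41, 11.10 and 10.55 in the haloperidol rats and 10.54, 10.64, 9.54, 10.51 and 10.48 in the risperidone rats. Nom1 means were 6.89, 6.79, 6.85, 6.92 and 7.76 in the vehicle rats, 6.99, 7.72, 7.79, 8.39 and 7.82 in the haloperidol rats, and 7.86, 7.86, 6.81, 7.80 and 7.77 in the risperidone rats. Both genes thus had the same 6 low rats, 8 intermediate rats and 1 high rat. The unnamed member 1382024_at, which carries several genes, ran against them (correlation -0.90 with Dnajb6 and -0.92 with Nom1). Slc26a8, an anion transporter, and Pnpla1, a lipid acyl hydrolase of the skin, also lie 4 genes apart and correlated at 0.807. Of the unnamed members, 1373053_at and 1377774_at correlated at 0.989.

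Some neighbors on the chromosome followed the order of rats of a member. The probe sets within 10 tested genes of a member gene made up 1520 pairs with a member (1387 distinct probe sets), and 37 pairs (2.43%, with 33 distinct probe sets) had an absolute correlation over 0.8, against 0.23% of all pairs of a member with a tested probe set of another gene. In 4 of these 37 pairs the neighbor was itself a member, namely Dnajb6 with Nom1 and Slc26a8 with Pnpla1, each counted from both sides. The 37 pairs belonged to 26 member genes. Of the correlations 23 were positive and 14 negative. Rnase4 correlated at 0.912 with Pnp, a purine nucleoside phosphorylase, at 0.902 with Osgep, a tRNA-modifying enzyme, and at -0.950 with Ttc5. Nqo2, a quinone reductase, correlated at 0.914 with the adjacent Serpinb6a and at -0.863 with Bphl, and Rexo4 at -0.951 with Med22, a Mediator subunit. The correlations are over 15 rats with group means removed, and neighbors share arrays and hybridizations with the members, as do all other pairs. The 55 member genes lay on 19 chromosomes, with at most 6 on a single chromosome.

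Nqo2 was low in 4 rats. Its means were 7.21, 6.59, 5.45, 5.27 and 6.57 in the vehicle rats, 6.57, 7.22, 6.55, 6.99 and 5.34 in the haloperidol rats, and 6.57, 6.58, 6.71, 7.16 and 5.37 in the risperidone rats. The 4 low rats (5.27 to 5.45) came from each of the treatments. Its profile correlated at -0.843 with the mean of the neuronal marker list, the only member and list with an absolute correlation over 0.8 among 20 lists, and the part of neuronal content in its level was not tested.

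A gene with another probe set gives a further measurement of its transcript. For 28 member genes, 41 other tested probe sets were not members. Their median correlation with the member was 0.426, 20 exceeded 0.5 (48.8%, against 48.0% of 5164 pairs of probe sets of the same gene without a member) and 18 lay under 0.2. The other probe set followed the member for Zfp61 (0.963 and 0.921), Mpeg1, a pore-forming protein of macrophages (0.963), Abca1 (0.963 and 0.853), Bcat1, a branched-chain aminotransferase (0.935), Arl16 (0.931) and Sgcb (0.894 and 0.787). It did not for Ramac (-0.098), Ythdf2 (0.136) or Hspa9, the mitochondrial HSP70 (-0.022 and -0.184). The other Ramac probe set stood at a mean of log2 9.58 with an SD of 0.105, against 7.19 and 1.11 for the member. The other probe set ran the opposite way for Tmem248 (-0.875), Pop5, a subunit of RNase P (-0.799), and probe set 1367770_at of Degs1, a ceramide-forming desaturase (-0.790). The spread of these probe sets was smaller than that of the members (median SD 0.127 against 0.45), and 3 of 41 had an SD over 0.3. For genes whose probe sets differ, the values describe the probe set and not the gene.

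**Figure D4:**
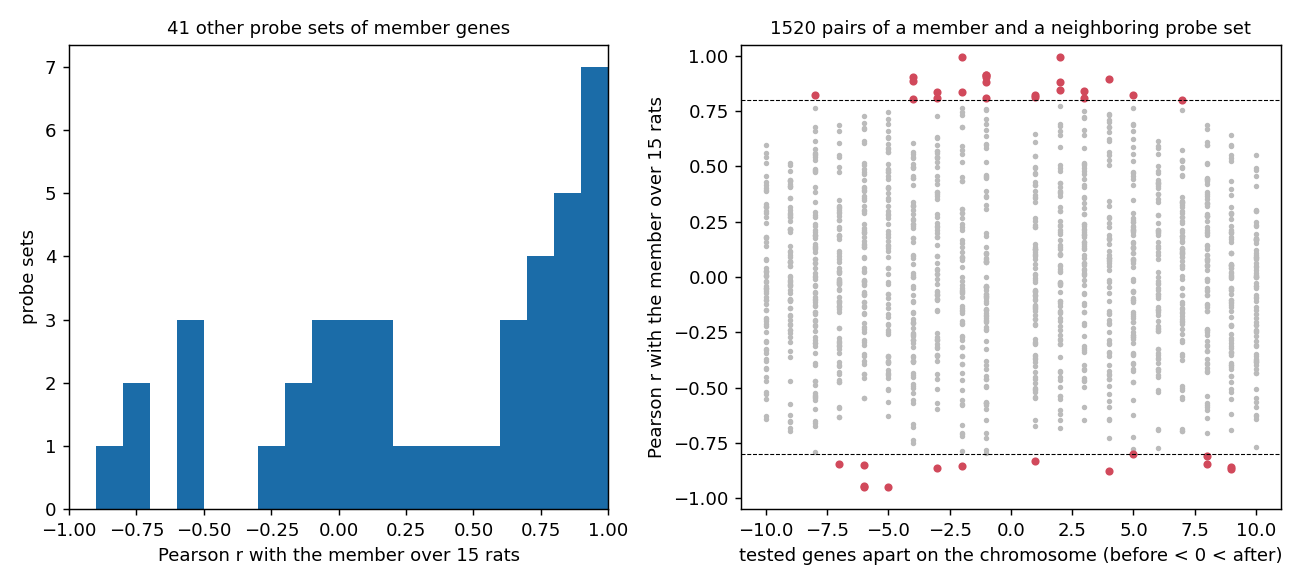
The left panel counts (y axis) the 41 other probe sets of member genes by their Pearson correlation with the member over 15 rats (x axis), which runs from -0.875 to 0.963. The right panel plots the correlation (y axis) of 1520 pairs of a member and a probe set of a neighboring gene, with the 37 beyond 0.8 or -0.8 in red. Its x axis gives the place of the neighbor in the order of tested genes, counted from the member gene. The next tested gene stands at 1 after the member gene and at -1 before it.

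Probe sets without a gene made up 44.4% of members and 22.5% of tested probe sets, and probe sets that carry several genes made up 2.8% against 1.6%. Probe sets whose design suffix marks shared or similar sequence were not more frequent, since 96.3% of members had the plain suffix against 94.8% of tested probe sets. Of the 57 members with a single gene, 53 were annotated as protein-coding, 2 as long noncoding RNA and 2 as pseudogenes.

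Few other genes of the members' families were members. Of all tested probe sets 0.58% were members, so that short lists would hold few by that share alone. Nothing is therefore read from the absence of others. Of 8 measured carbonic anhydrases Car3 alone was a member, of 8 mRNA capping genes Ramac alone, and of 24 genes of the peroxisomal membrane and lipid oxidation Pxmp4 alone. Of the ribonuclease list 2 genes were measured, Rnase4 and Rnh1, the ribonuclease inhibitor, so that Rnase4 could not be set beside another ribonuclease. The median correlation between regions over the probe sets of these lists was 0.12 for carbonic anhydrases, 0.28 for capping and 0.39 for peroxisomes, against 0.24 over all tested probe sets. Of 24 measured genes of xenobiotic and steroid metabolism, Nqo2, Ephx2, a soluble epoxide hydrolase, and Cyp4v3, a fatty acid hydroxylase, were members. Ephx2 stood at 8.55 in a single rat and from 7.14 to 8.23 in 14, and Cyp4v3 from 7.23 to 7.63 in 7 rats and from 7.99 to 8.30 in 8. No member was among 14 measured MHC genes, where RT1-S3 came closest (0.858), or 16 glutathione S-transferases, where Mgst1 reached 0.822.

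Lists of states that a whole animal shares held 3 members among 84 probe sets (3.57%, against 0.58% of all tested probe sets). The lists were chosen with earlier results of these data known. The median SD was 0.24 in the interferon and in the immediate early list, against 0.12 over all tested probe sets, and the rule favors a wide spread. Nothing is therefore read from the higher share. Ifi27 was the member among 9 measured interferon response genes, whose probe sets had a median correlation between regions of 0.542. Ifi27 means were 10.11, 9.99, 9.96, 10.85 and 9.17 in the vehicle rats, 10.20, 10.23, 10.75, 10.23 and 10.28 in the haloperidol rats, and 9.19, 9.41, 10.98, 10.19 and 10.09 in the risperidone rats. Dusp6, a phosphatase that limits ERK signaling, and probe set 1387762_s_at of Jund, an AP-1 factor, were members among 18 immediate early genes (median 0.372). The Jund member stood at a mean of log2 5.90, and the other probe set of Jund at 10.43. No member was found among 11 glucocorticoid response genes (median 0.397, Sgk1 highest at 0.865), 18 clock genes (median 0.135), or 2 measured genes of the Y chromosome and X inactivation.

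Cell type markers held 0 members among 129 probe sets, where the share over all tested probe sets (0.58%) would give 0.7. None was found among 18 measured genes of neurons, 12 of astrocytes, 12 of oligodendrocytes, 12 of microglia, 14 of vessels, 13 of meninges and choroid plexus, 5 of blood or 4 of muscle and fat. Microglial markers had a median correlation between regions of 0.554, above the 0.235 of all tested probe sets, with a median SD of 0.19. For Car3, which muscle and fat express, the correlation with the muscle and fat markers (measured by Acta1, Pvalb, Plin4 and Myh1, of which Pvalb also marks interneurons) was -0.097 and with the blood markers 0.166 over 15 rats. Over all 20 lists the correlation of Car3 was highest with the oligodendrocyte markers (0.583) and lowest with the MHC genes (-0.523), and the part of these markers in its level was not tested.

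Whether a drug moved the members was tested on the mean of the 3 regions of each rat, since the rat is the unit. In limma, 0 of 108 members were called for haloperidol against vehicle (at least 1.2-fold with an adjusted p under 0.05), when 0 of 18609 probe sets were called (0.0%), and 12 members (11.1%) had an unadjusted p under 0.05 against 13.8% of all. For risperidone against vehicle 0 members were called against 168 of 18609 (0.903%), with 7 members (6.48%) under 0.05 against 21.0%. For risperidone against haloperidol 0 members were called, as were 0 of all probe sets (0.0%), with 1 member under an unadjusted p of 0.05 against 10.2%. The smallest adjusted p of a member was 0.206, 0.111 and 0.442 in these comparisons from limma. The comparisons with vehicle share the 5 vehicle rats.

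The members were chosen for a wide spread between rats, which also widens differences between group means, so nothing is read from how many were large. A difference of at least 1.2-fold between rat means was seen in 45 members (41.7%) for haloperidol and in 48 (44.4%) for risperidone, against 2.31% and 4.69% of all tested probe sets. Ramac was lower by 1.71 log2 units in the haloperidol group (difference -1.71, SE 0.74, limma adjusted p = 0.33, with 5 rats in each group), with 3 haloperidol rats at 5.03 or below and 2 at 7.86 or above. Nom1 differed by 0.70 (SE 0.26, adjusted p = 0.251 from limma) and Dnajb6 by 0.61 (SE 0.26, adjusted p = 0.324) for haloperidol. Car3 differed by -0.51 (SE 0.96) for haloperidol and by -0.93 (SE 0.96) for risperidone. The median SE of a member was 0.292, against 0.0539 over all tested probe sets, and none of these differences passed the test against the spread between rats.

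**Figure D5:**
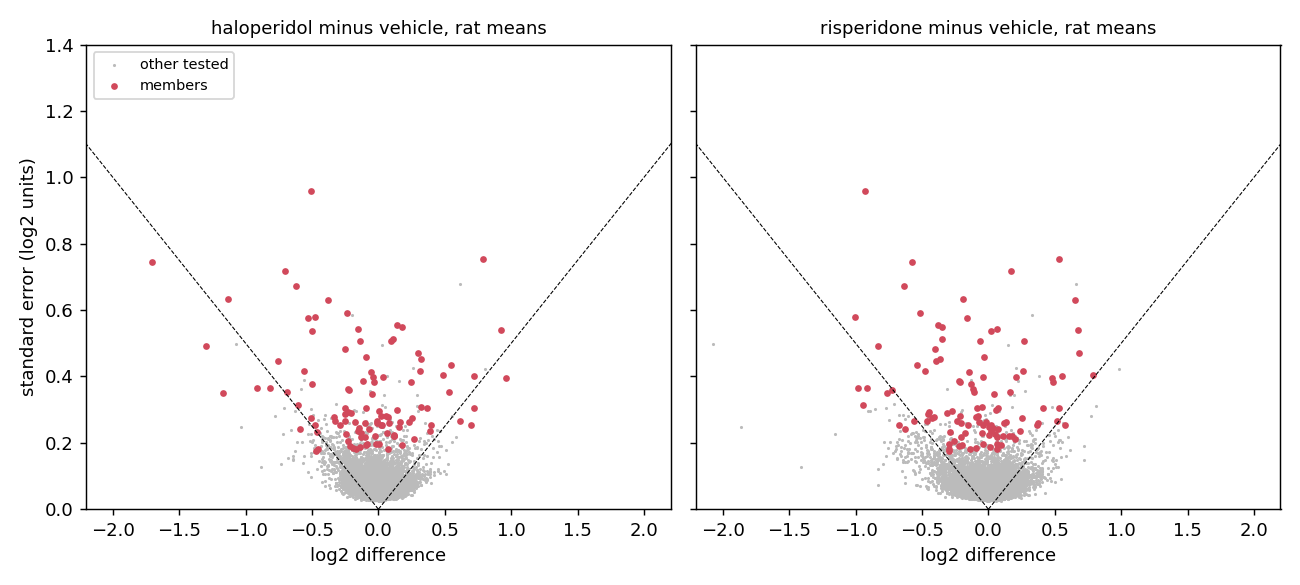
For each tested probe set the log2 difference of a drug from vehicle (x axis) is plotted against its standard error (y axis, log2 units), from the fit of 15 rat means, with haloperidol on the left and risperidone on the right. Members (red) have differences as wide as -1.71 and 0.96 for haloperidol but lie high on the axis of error, most of them between the dashed lines at 2 standard errors.

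Region by region, the fit of all 45 arrays called few members. For haloperidol against vehicle it called 0 members in frontal cortex (33 of 18609 probe sets, 0.177%), 0 in hippocampus (0 probe sets, 0.0%) and 0 in striatum (63 probe sets, 0.339%), with 17, 16 and 17 members under an unadjusted p of 0.05 in limma, against 13.6%, 3.76% and 15.4% of all probe sets. For risperidone it called 0 in hippocampus (21 probe sets, 0.113%, and 10 members under an unadjusted p of 0.05 against 16.6% of all), 2 in frontal cortex (632 probe sets, 3.4%) and 3 in striatum (679 probe sets, 3.65%), where 13 members each were under an unadjusted p of 0.05 against 22.7% and 22.4% of all. The shares of members were 1.85% in frontal cortex and 2.78% in striatum, and nothing is read from these shares or from those by rat means, because the rule chose members for a wide spread within groups, which is the error of these tests. This fit assumes that the regions of a rat correlate at 0.226, the consensus over all probe sets, while the median of the members' own correlations was 0.923. Fitted on the 15 arrays of each region alone, 0 members were called in any region for either drug, when 2.00% of all probe sets were called for risperidone in frontal cortex and 0.484% in striatum.

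Dusp6 in frontal cortex had vehicle values of log2 10.01, 8.11, 9.47, 9.48 and 9.57. Risperidone values were 7.99, 8.12, 8.87, 8.77 and 8.66, and haloperidol values 8.71, 9.07, 8.89, 8.51 and 8.29. It fell by 0.85 on the log2 scale after risperidone (SE 0.24, adjusted p = 0.0312 from limma), although vehicle replicate 2 lay among the risperidone rats. Leaving out any of 6 rats ended the call (limma adjusted p at most 0.113), among them risperidone replicate 2 with its olfactory bulb markers (-0.76, adjusted p = 0.102), and kept without risperidone replicate 5 (-0.89, adjusted p = 0.0368). It was also lost with the region fitted alone (adjusted p = 0.105). The other probe sets of Dusp6 fell as well in frontal cortex, 1377064_at by 0.77 (SE 0.14, adjusted p = 0.00114 from limma) and 1387024_at by 0.71 (SE 0.12, adjusted p = 0.000949). By rat means they fell by 0.56 (limma adjusted p = 0.0301) and by 0.50 (adjusted p = 0.0191), while the member differed by -0.67 (adjusted p = 0.15). After haloperidol 1377064_at fell by 0.62 in frontal cortex (limma adjusted p = 0.0464), and 1387024_at differed by -0.49 (adjusted p = 0.0848). With group means removed, so that no drug difference enters, 1387024_at correlated with the member at 0.286 and 1377064_at at -0.012. Of the 18 measured immediate early genes, a list chosen with earlier results known, 12 fell and 0 rose after risperidone in frontal cortex, with a median difference of -0.50 against 0.01 over all tested probe sets, and 11 fell by rat means. Over all 18609 probe sets, 351 fell in frontal cortex and 118 by rat means. A gene counted when any of its probe sets was called, with 31 probe sets for the 18 genes. In striatum 9 fell and 1 rose, Jund by the probe set that is not a member, and in hippocampus 2 fell, Homer1 and Nr4a3. Over all probe sets, 514 fell and 165 rose in striatum, and 11 fell in hippocampus. The counts of this list were not taken without risperidone replicates 2, 3 or 5.

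The unnamed probe set 1394953_at was called in both regions. In striatum its vehicle values were 7.48, 6.38, 7.68, 7.42 and 7.72, and its risperidone values 5.85, 6.14, 6.26, 5.77 and 6.96. It fell by 1.14 (adjusted p = 0.0153 from limma) in striatum and by 0.93 (adjusted p = 0.047) in frontal cortex. The haloperidol values in striatum were 6.10, 7.56, 7.29, 6.20 and 6.03, so that high and low rats were found in each treatment. In striatum the call was lost without vehicle replicate 3 or 5 (adjusted p up to 0.0557), and without risperidone replicate 3 it was -1.16 with an adjusted p = 0.0472 from limma. In frontal cortex leaving out any of 9 rats ended it (limma adjusted p at most 0.12), risperidone replicate 2 among them (adjusted p = 0.0911), and without risperidone replicate 5 it was -1.08 (adjusted p = 0.0205).

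Rnf6 in striatum had vehicle values of 8.71, 7.35, 7.27, 8.20 and 7.16, and risperidone values of 6.93, 6.87, 7.05, 7.06 and 7.08. The groups did not overlap, but vehicle replicates 1 and 4 carried most of the difference of -0.74 (adjusted p = 0.0471 from limma), a call that ended when any of 11 rats was left out. The difference was -0.50 without vehicle replicate 1 (limma adjusted p = 0.0828) and -0.75 without risperidone replicate 3 (adjusted p = 0.123). The unnamed 1379058_at had striatal vehicle values of 7.69, 8.45, 7.54, 8.20 and 7.53 and risperidone values of 7.32, 6.23, 6.98, 6.29 and 7.13. It fell by 1.09 (adjusted p = 0.0467 from limma), and leaving out any of 10 rats ended the call (adjusted p at most 0.131), risperidone replicate 3 among them (adjusted p = 0.107). Groups without overlap were seen in 3 members in striatum after risperidone (3.65% of all tested probe sets), in 1 in frontal cortex (5.64%), in 1 in hippocampus (Rnf6, 4.16%) and in 2 by rat means (5.27%). After haloperidol they were seen in 1 member by rat means (Zfp61, a zinc finger protein, 4.04%) and in 0 in frontal cortex (3.96%), hippocampus (1.32%) and striatum (3.42%), and between the drugs in 0 (1.63%).

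A drug effect that differed between regions was called in 0 members in each of 6 comparisons in limma, with 0 members under an unadjusted p of 0.05 and a smallest adjusted p from 0.355 to 0.878. For haloperidol the share of all probe sets called was 0.0% for hippocampus against frontal cortex, 0.0269% for striatum against frontal cortex and 0.0% for striatum against hippocampus. For risperidone these shares were 1.32%, 2.94% and 1.66%. An unadjusted p under 0.05 was found in 8.4%, 7.41% and 7.36% of all probe sets for haloperidol and in 15.5%, 21.5% and 19.0% for risperidone. The members' median SE was 0.341 in these tests, against 0.101 over all probe sets. The rule chose members for a wide spread within groups, which enters this error. The fit also assumes a correlation of 0.226 between the regions of a rat, against the members' own median of 0.923. Nothing is therefore read from the counts of 0 members. With the rat as a fixed effect, the risperidone effect was called different in 1 member for striatum against frontal cortex (2.58% of all probe sets), the unnamed 1391598_at (-0.28, adjusted p = 0.0492 from limma). For striatum against hippocampus it was called in 2 (1.32%), the unnamed 1377743_at (-0.38, adjusted p = 0.041 from limma) and Apeg3 (-0.37, adjusted p = 0.0365). The error of that fit is the spread within rats, which the rule kept small beside the spread between rats. Nothing is read from these counts either.

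Regional differences were present in the members, as in many other probe sets. The rule removed group means, so that it did not use these differences. It did choose members for a wide spread, and their median SE was 0.139 here, against 0.0411 over all probe sets. Nothing is therefore read from lower shares of members called. Of 108 members, 46 were called for hippocampus against frontal cortex (53.9% of all tested probe sets), 39 of them higher (48.4% of all) and 7 lower (5.44%). For striatum against frontal cortex 27 were called (42.9%), 7 higher (16.0%) and 20 lower (27.0%), and for striatum against hippocampus 52 (64.7%), 3 higher (7.7%) and 49 lower (57.0%). The regions appear to have been normalized separately, and the median difference over all probe sets was 0.26, -0.07 and -0.32 log2 units in these comparisons, close to the members' medians of 0.28, -0.06 and -0.31. After quantile normalization over all arrays, 21 members were called for hippocampus against frontal cortex (29.5% of all), 6 higher (14.7%) and 15 lower (14.7%). For striatum against frontal cortex it called 26 (42.0%), 9 higher (20.8%) and 17 lower (21.3%), and for striatum against hippocampus 28 (44.6%), 14 higher (22.3%) and 14 lower (22.3%).

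Dusp6 was lowest in striatum, with mean levels of log2 8.83 in frontal cortex, 9.44 in hippocampus and 7.77 in striatum. Its striatal level was lower than that of hippocampus by 1.67 on the log2 scale (difference -1.67, SE 0.12, adjusted p = 3.92e-16 from limma), or -1.32 after quantile normalization. Ifi27 had mean levels of 10.36, 10.66 and 9.30, with a difference of striatum from frontal cortex of -1.06 (SE 0.15, adjusted p = 3.89e-08 from limma), or -0.91 after quantile normalization. Cmc1, a factor of mitochondrial complex IV assembly, differed between striatum and hippocampus by -0.97 (SE 0.13), and Gpd2, the mitochondrial glycerol-3-phosphate dehydrogenase, by -0.89 (SE 0.12). Both kept their direction after quantile normalization (-0.67 and -0.56). The unnamed 1380948_at was lower in hippocampus and striatum than in frontal cortex (log2 differences -1.74 and -1.72, SE 0.26). Without risperidone replicate 2, 3 or 5 or haloperidol replicate 1, left out in turn, the difference of Dusp6 lay between -1.71 and -1.65 and that of Ifi27 between -1.10 and -1.01. Cmc1 lay between -0.99 and -0.97, Gpd2 between -0.91 and -0.87, and 1380948_at between -1.78 and -1.72 in hippocampus and between -1.75 and -1.70 in striatum.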

How the data were processed

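RMA under R 2.7.2 gave the intensities that the authors deposited, after background correction, normalization and summary of the probes. They are linear, and log2 was taken before any step here. The array medians were 89.93 to 93.09 (frontal cortex), 106.71 to 110.37 (hippocampus) and 87.93 to 92.06 (striatum), as if each region had been normalized by itself, which the methods do not state. Arrays have no read depth, and their number limits the precision. The authors' human samples were not analysed here.

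Of 31099 probe sets, those at or above the 40th percentile of the mean were kept and 57 control probe sets removed. Probe sets were named through GEO's platform annotation, with symbols updated by gene identifier to RefSeq (GRCr8). Only gene order and promoters were taken from GRCr8. Python 3.11.15 with numpy 2.4.6 and pandas 2.3.3 found the members, and matplotlib 3.10.9 drew the plots.

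In limma 3.58.1 under R 4.3.3 with data.table version 1.17.8 a mean was fitted for each of 9 groups, and duplicateCorrelation blocked on the rat (correlation 0.226, with 39.9 degrees of freedom in the moderated test). The rat pairs the regions by the animal number in the labels. Rat means were fitted with a mean per treatment. P-values of the moderated test went through the Benjamini-Hochberg adjustment over all tested probe sets of a comparison, and calls needed an adjusted p under 0.05 and 1.2-fold. Fits without a rat reused the consensus correlation. The risperidone fit in frontal cortex was also run on simulated data for 18609 probe sets. It found 87 of 100 changes of 1.5-fold and 100 of 100 of 2-fold, and 9 unchanged probe sets passed. In the measured data the median SE in this comparison was 0.274 for members, against 0.0809 over all tested probe sets. How many changes the fit finds in probe sets with the members' spread was not tested.

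The members, the 20 gene lists and the rule for named genes were chosen with earlier results of these data known. Named are the members that exemplify the rule, the 12 with the widest spread and the 12 with the highest correlation among those with a single gene, members called for a drug, members with several probe sets, neighbors of another member, members of a list, and probe sets next to a threshold. Genes named for their other probe sets, their neighbors or their regional levels, and the markers of neighboring tissue, were chosen after their values were seen. Labels do not say whether tissue was processed in batches.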

Additional observations from a re-analysis of the deposited data

Results flagged for a closer look

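For 17 member probe sets whose 15 rat means were computed for display, the 5 rats of each treatment were compared, 51 groups in all. In 12 groups (23.5%) the highest or lowest rat stood apart by Dixon's criterion, which chance meets in about 1 in 20 groups. The members were chosen for a wide spread on the same values, which favors such gaps, so that this rate is no measure for them. All values are means of 3 regions on the log2 scale. Car3 stood at 9.5 in haloperidol replicate 3, above the other rats of that group. Ramac stood at 4.91 in risperidone replicate 4, below the rest of its group. Sgcb was lowest in vehicle replicate 3 (6.75) and in haloperidol replicate 5 (8.76). Dnajb6 was highest of the vehicle rats in replicate 5 (10.55) and lowest of the risperidone rats in replicate 3 (9.54), and Nom1, whose profile follows Dnajb6, stood apart in the same rats, at 7.76 and 6.81. Ifi27 was highest of the haloperidol rats in replicate 3 (10.75). The unnamed 1394953_at was lowest of the vehicle rats in replicate 2 (6.47). Abca1 was lowest in haloperidol replicate 5 (6.72) and in risperidone replicate 3 (7.11). The source of these differences was not tested.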

How the results depend on the processing

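The number of members was 108, and between 76 and 149 under 8 further settings that stayed within 1.5 times of it (111 with the pooled SD, chosen after seeing the data). It was 57 with a filter at the 60th percentile, 67 with Spearman correlations, 44 with a mean correlation over 0.95 and 54 without the 2 farthest rats per probe set. Leaving out a rat at a time gave 97 to 114 members.

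Without the replicate block, 0 members in frontal cortex and 1 in striatum were called for risperidone, and the regional counts were 31, 21 and 39. With no filter on dim probe sets the counts for risperidone were 0 and 1, and with a separate fit for the arrays of each region 0 and 0. With the replicate block as a fixed effect 65, 41 and 66 members were called between regions, and the risperidone effect differed in 1 member for striatum against frontal cortex and in 2 for striatum against hippocampus. Quantile normalization over all arrays gave 21 members for hippocampus against frontal cortex and 28 for striatum against hippocampus. The causes were not tested. These counts are given without the shares over all probe sets, so they show how the calls moved and nothing particular to the members.

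Without a rat at a time, risperidone in frontal cortex gave 0 to 5 members called: 5 without risperidone replicate 5, 1 without vehicle replicate 3, haloperidol replicate 1 or risperidone replicate 4, and 0 without vehicle replicates 1, 4 or 5 or risperidone replicates 1 or 2. Risperidone in striatum gave 1 to 3, with 1 without vehicle replicates 1, 3 or 4 or risperidone replicate 2. Haloperidol gave 0 to 1 in frontal cortex (1 without vehicle replicate 2 or haloperidol replicates 1 or 2) and 0 to 1 in striatum (1 without haloperidol replicates 1 or 2 or risperidone replicate 3), and risperidone by rat means 0 to 1 (Dusp6 without vehicle replicate 2). No other count moved by more than 1.5 times, and no named member changed direction. These counts, too, stand without the shares over all probe sets, and nothing particular to the members is read from them. The number of rats limits the precision of every value.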
